A study of Equus caballus with 2 samples.

Results

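Messenger RNAs of 6 fibroblast growth factor (FGF) ligands, 3 FGF receptors and hepatocyte growth factor were followed in cultured endometrial fibroblasts of the horse, with and without transforming growth factor beta 1 (TGF-β1). The members were chosen by gene symbol and are *FGF2*, *FGF7*, *FGF10*, *FGF14*, *FGF18*, *FGF21*, *FGFR1*, *FGFR2*, *FGFR4* and *HGF*. All 10 were found among the 21426 genes of the count matrices.

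FGF ligands are growth factors that bind tyrosine kinase receptors at the cell surface and signal through RAS and ERK. In the uterus, stromal fibroblasts release *FGF7*, *FGF10* and *HGF*, which act on receptors of the overlying epithelium, while *FGF2* also acts on the fibroblasts themselves. TGF-β1 turns fibroblasts into contractile, matrix producing myofibroblasts, which are marked by smooth muscle actin (*ACTA2*), and *HGF* is known as a factor that opposes this change.

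Primary fibroblasts from healthy or mildly fibrotic endometrium of 4 mares in the mid-luteal phase, at passage 3 on hydrogels coated with collagen, were kept in medium with 0.1% BSA for 24 h, either without an addition (control) or with human recombinant TGF-β1 at 10 ng/ml. Cells of the 4 mares were pooled into 1 droplet library per group, sequenced from the 3' end with unique molecular identifiers (UMIs). No ages of these animals were used here and cells were not assigned to mares. Differences between animals are therefore mixed into every value over cells and cannot be told apart from differences between cells. With 1 library per group, no test was made, and the treatment cannot be told apart from the preparation of the library.

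Of 4384 control and 5124 TGF-β1 cell barcodes, 3865 and 4513 were kept, with 210497250 and 219731144 UMIs. The median was 50313 UMIs per control cell and 43142 per TGF-β1 cell, and 2 barcodes were shared by kept cells of both libraries. Levels are UMIs per 1000000 UMIs of the library (CPM), and shares of cells were taken after each cell had been thinned to 20000 UMIs. Intervals are at the 95% level and cover counting error only. The fibroblast label was checked against marker genes. Every cell held UMIs of *VIM* and *COL1A1*, while the epithelial genes *EPCAM* and *CDH1* had at most 6 UMIs per library, the leukocyte gene *PTPRC* at most 1 and the endothelial gene *CDH5* at most 3. The stromal genes differed between libraries. *VIM* went from 4399 CPM in the control to 2240 CPM after TGF-β1, *PDGFRB* from 80.1 to 49.0 CPM and *PDGFRA* from 50.5 to 16.7 CPM. *PDGFRA* had a UMI in 53.7% of thinned control cells and 25.0% of TGF-β1 cells. *DCN* was slightly lower, and *COL1A1*, *COL1A2* and *LUM* were slightly higher. Other genes of the same marker lists were detected, among them the cytokeratins *KRT8* (24061 UMIs in the control and 985 in the TGF-β1 library) and *KRT7* (4066 and 1548), the myeloid genes *CD14* (2945 and 2142) and *CD68* (8974 and 9472), and the endothelial genes *VWF* (99 and 45) and *KDR* (54 and 35). So were the muscle genes *DES* (136029 and 125093) and *MYH11* (9025 and 5558), and the pericyte genes *RGS5* (10892 and 13419) and *MCAM* (1216 and 385). Since no cells of another type were set apart, none that should lack the members could serve to set the level of free RNA, and the lowest shares are given without such a background.

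Of the 8 members with a mean of at least 1 CPM, *FGF21* and *FGF14* were more than 2-fold higher in the TGF-β1 library and *FGFR4* was more than 2-fold lower. Among all 12116 genes of at least that level, 3.45% were more than 2-fold higher and 3.46% more than 2-fold lower. The median log2 ratio of the 8 members was -0.00012, beside -0.01 over all genes. *HGF* was 1.77-fold lower, *FGF18* 1.42-fold higher, and *FGF2*, *FGF7* and *FGFR1* were within 1.22-fold of the control.

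**Figure D1:**
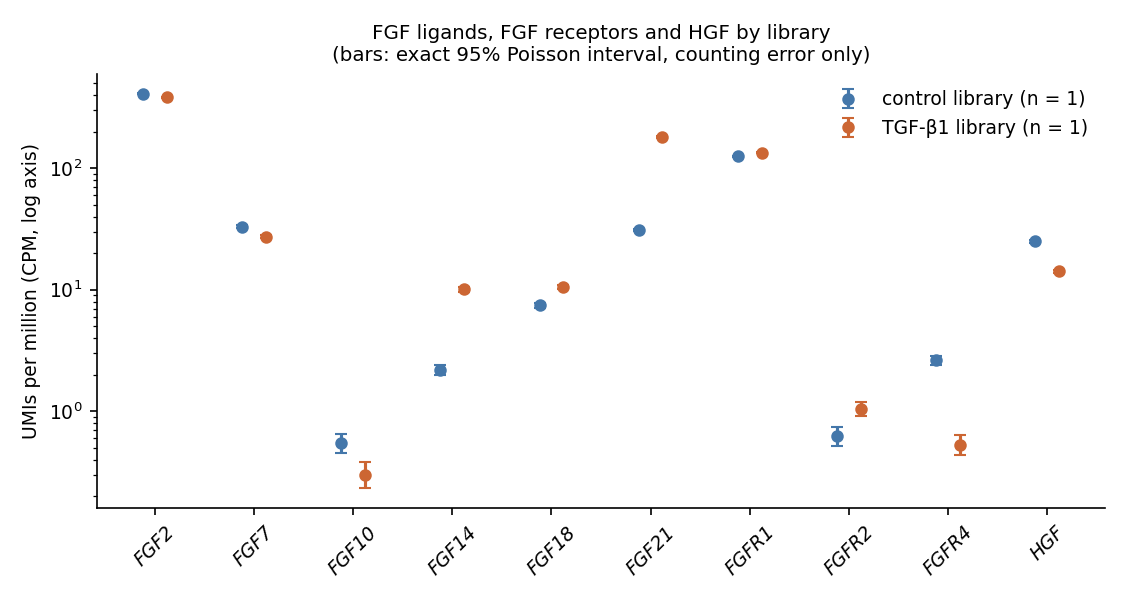
Level of each member in CPM on a log axis, as 1 point per library with its exact 95% Poisson interval. The points of *FGF21*, *FGF14* and *FGFR4* lie farthest apart, with *FGF21* at 31.0 CPM in the control and 180.4 CPM in the TGF-β1 library, while those of *FGF2* and *FGFR1* nearly coincide.

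In the control, the members ranked from *FGF2* at 410.0 CPM over *FGFR1*, *FGF7*, *FGF21*, *HGF*, *FGF18*, *FGFR4* and *FGF14* to *FGFR2* and *FGF10*, of which only the last pair had overlapping intervals. In the TGF-β1 library, *FGF21* stood in second place after *FGF2*, *FGFR4* had dropped below *FGFR2*, and only *FGF18* and *FGF14* had overlapping intervals. UMIs from the 3' end count transcript ends and are not scaled to gene length, and the capture of an end can differ between genes, so this order compares genes only roughly.

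*FGF21* (ENSECAG00000010695), a secreted hormone of the endocrine FGF group that signals through FGF receptors together with the co-receptor β-klotho, had the largest difference between libraries in the summed UMIs. It had 6535 UMIs in the control library (31.0 CPM) and 39630 after TGF-β1 (180.4 CPM), which is a log2 ratio of 2.54 (2.50 to 2.58). Only 41 of the 12116 genes had a larger rise. More cells held the transcript and each of them held more of it. At equal depth, 31.5% of control cells (30.0 to 33.0%) and 82.4% of TGF-β1 cells (81.3 to 83.5%) had a UMI, compared with 48.5% and 91.8% before thinning. Cells with a UMI held 1.96 UMIs in the control and 4.27 in the TGF-β1 library. The share of cells with 5 or more UMIs went from 2.12% to 29.8%, and the richest cell from 16 to 44 UMIs. In the control, the tenth of cells with the most *FGF21* held 58.9% of its UMIs and in the TGF-β1 library 32.3%. The co-receptor *KLB* was near the limit of the assay, with 25 UMIs in the control and 45 in the TGF-β1 library.

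*FGF14* (ENSECAG00000024133) belongs to the FGF homologous factors, which stay inside the cell and bind voltage-gated sodium channels. It had 458 UMIs in the control (2.18 CPM) and 2211 after TGF-β1 (10.1 CPM), 4.62-fold more, with a log2 ratio of 2.21 (2.06 to 2.36). A UMI was found in 2.74% of control cells (2.25 to 3.31%) and 10.3% of TGF-β1 cells (9.47 to 11.3%), with 1.72 and 1.85 UMIs per positive cell. Before thinning the shares were 4.42% and 15.8%.

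*FGF18* (ENSECAG00000030850), a secreted ligand known from bone and cartilage growth, had 1569 UMIs in the control (7.45 CPM) and 2325 in the TGF-β1 library (10.6 CPM). The log2 ratio was 0.51 (0.41 to 0.60). Its UMIs were thinly spread, with 11.4% of control cells and 16.8% of TGF-β1 cells holding a UMI after thinning, 1.26 and 1.23 UMIs each.

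*FGF2* (ENSECAG00000014829), the basic FGF and a mitogen of fibroblasts, was the most abundant member in both libraries. It reached 410.0 CPM from 86298 UMIs in the control and 382.0 CPM from 83927 UMIs after TGF-β1, for a log2 ratio of -0.10 (-0.12 to -0.09). The direction turned in an alternative chosen after seeing the data, with thinned cells and equal shares of *ACTA2* ranges in both libraries (0.10, against -0.12 for thinning alone). Nearly every cell held it, 95.5% in the control and 96.2% in the TGF-β1 library, and the average hid a wide range between cells. The median cell had 6 UMIs in the control and 5 in the TGF-β1 library, whereas the richest cells had 116 and 78. The variance over cells was 8.97 and 7.36 times the mean.

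*FGF7* (ENSECAG00000015510), the keratinocyte growth factor, which fibroblasts send to epithelium, was slightly lower after TGF-β1. It had 6972 UMIs in the control (33.1 CPM) and 5989 after TGF-β1 (27.3 CPM), for a log2 ratio of -0.28 (-0.33 to -0.23). It was -0.25 with thinned cells and -0.05 when these also had equal shares of *ACTA2* ranges. A minority of cells carried most of it. A UMI was seen in 29.3% of cells in the control and 24.9% after treatment, and the tenth of cells with the most *FGF7* held 64.5% and 70.4% of its UMIs. Cells with 5 or more UMIs made up 3.03% and 2.50%, against a median of 0. Its near relative *FGF10* (ENSECAG00000014361), which uses the same epithelial receptor, was sparse, with 115 UMIs in the control and 66 in the TGF-β1 library, and with a UMI in 0.724% and 0.532% of thinned cells. The *FGF10* levels were 0.546 and 0.300 CPM, and the log2 ratio of -0.86 had an interval from -1.32 to -0.41. The *FGF10* ratio was -0.85 by the mean of per-cell CPM. It was -0.60 with cells thinned in 1 random draw, which left 35 UMIs in the control and 27 in the TGF-β1 library. When these cells also had equal shares of *ACTA2* ranges, it was -0.28.

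*HGF* (ENSECAG00000011223), the ligand of the receptor MET, was lower in the TGF-β1 library. It had 5269 UMIs in the control (25.0 CPM) and 3104 after TGF-β1 (14.1 CPM), for a log2 ratio of -0.83 (-0.89 to -0.76). Of the 12116 genes, 607 had a larger fall. Both the share of cells and the amount per cell were lower, with a UMI in 33.9% of control cells (32.4 to 35.4%) and 22.5% of TGF-β1 cells (21.3 to 23.8%), and 1.5004 and 1.2930 UMIs per positive cell. Before thinning the shares were 58.9% and 40.8%. *MET* itself was lower too, at 63.0 CPM in the control and 49.5 CPM after TGF-β1, for a log2 ratio of -0.35.

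**Figure D2:**
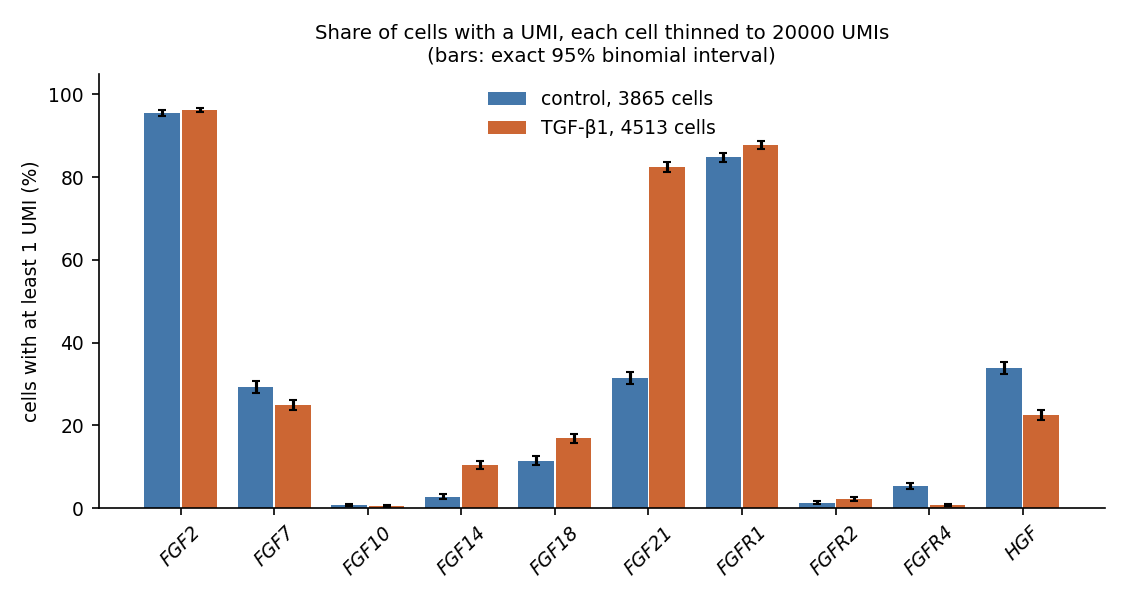
Percent of cells with at least 1 UMI of each member, after every cell was thinned to 20000 UMIs, with exact 95% binomial intervals. *FGF21* spans the widest gap, from 31.5% of 3865 control cells to 82.4% of 4513 TGF-β1 cells, and *HGF* goes from 33.9% down to 22.5%.

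*FGFR1* (ENSECAG00000015006), the main FGF receptor of mesenchymal cells, hardly differed between the libraries. It had 26287 UMIs in the control (124.9 CPM) and 29448 after TGF-β1 (134.0 CPM), for a log2 ratio of 0.10 (0.08 to 0.13), and 84.8% and 87.7% of cells had a UMI. In contrast to *FGF2*, the spread over cells was narrow, with a variance of 1.55 and 1.49 times the mean and at most 12 and 13 UMIs in a cell.

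*FGFR4* (ENSECAG00000020869), a receptor best known from liver, where it transmits the hormone FGF19, had 553 UMIs in the control (2.63 CPM) and 116 in the TGF-β1 library (0.528 CPM). The log2 ratio was -2.32 (-2.62 to -2.02), a level 4.98-fold lower, and 46 of the 12116 genes had a larger fall. It was -2.47 by the mean of per-cell CPM. The single random thinning to equal depth gave -2.98, with only 34 UMIs left in the TGF-β1 library. A UMI was found in 5.38% of thinned control cells (4.69 to 6.14%) and in 0.753% of TGF-β1 cells (0.522 to 1.05%), before thinning in 12.1% and 2.46%. The shares expected over all thinnings were 5.33% in the control and 1.02% in the TGF-β1 library. No thinned TGF-β1 cell had more than 1 UMI. *FGFR2* (ENSECAG00000013960), whose epithelial form receives *FGF7* and *FGF10*, had 131 UMIs in the control (0.622 CPM) and 229 after TGF-β1 (1.04 CPM), for a log2 ratio of 0.74 (0.43 to 1.06), and its mean stayed under 1 CPM. At least 1 of the 3 receptors was seen in 85.7% of cells in the control and 88.0% after treatment, nearly all through *FGFR1*.

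**Figure D3:**
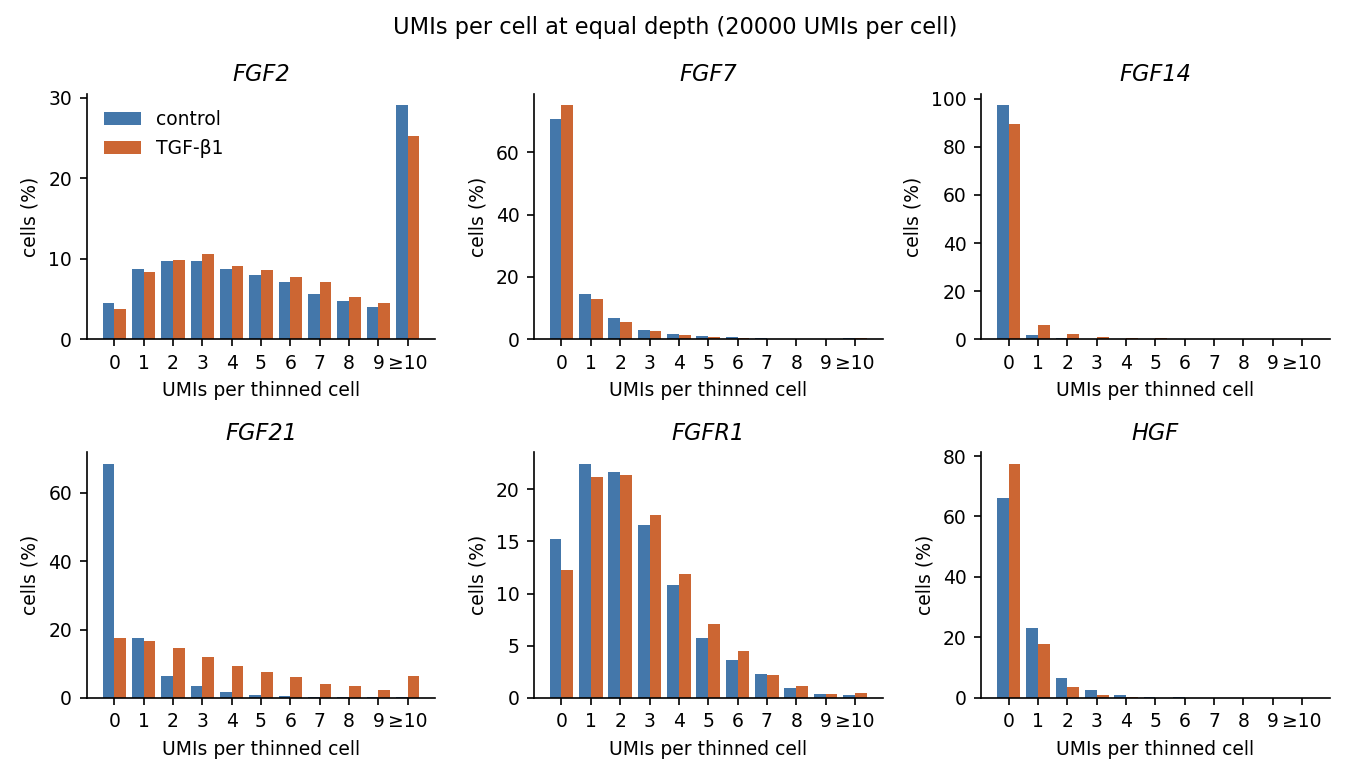
Percent of thinned cells by number of UMIs per cell for 6 members, with control and TGF-β1 bars side by side and the last bar holding 10 or more UMIs. For *FGF21* the whole distribution moves to the right (5 or more UMIs in 2.12% of control and 29.8% of treated cells), for *FGF14* mainly the height of the bar at 0 differs, and for *FGF2* the 10 or more bar holds 29.1% and 25.2%.

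Co-detection was read as the number of cells with UMIs of both members over the number that the product of their shares gives. A ratio of 1 means that the pair met as often as that product. Of 45 pairs, 39 gave at least 5 cells by the product in each library. The ratios ran from 0.63 to 1.55 in the control, with a median of 1.01, and from 0.70 to 1.41 in the TGF-β1 library, with the same median of 1.01. The ends of the range rest on few cells. *FGF14* and *FGF21* met in 21 control cells, where the product gives 33.3.

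Of the pairs of *FGF7*, *HGF*, *FGF14* and *FGF21*, some lay above the product and some below it. *FGF7* and *HGF* had ratios of 1.13 in the control (431 cells) and 1.03 in the TGF-β1 library (261 cells), and *FGF7* and *FGF14* had 1.55 (48 cells) and 1.22 (142 cells). *FGF21* and *HGF* had ratios of 0.81 in the control (333 cells) and 0.95 in the TGF-β1 library (795 cells). In other words, 27.4% of control cells with *FGF21* (24.9 to 30.0%) and 36.8% of those without it also held *HGF*, and in the TGF-β1 library these shares were 21.4% and 28.0%. *FGF7* and *FGF21* had a ratio of 0.82 in the control, where 25.7% of cells with *FGF7* and 33.8% of cells without it held *FGF21*, and of 1.01 in the TGF-β1 library.

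Pairs of a ligand with its receptor were read in the same way. *FGF2* and *FGFR1* occurred together in 80.9% of cells in the control and 84.5% after treatment. *FGF21* and *FGFR1* occurred together in 26.8% of cells in the control and 72.1% after treatment, with co-detection ratios of 1.01 and 1.00. The co-receptor *KLB* had a UMI in only 0.207% of control and 0.465% of TGF-β1 cells, so this pair does not show cells able to receive *FGF21*. *HGF* and *MET* were found together in 19.9% and 11.4% of cells, with ratios of 1.00 and 0.94. Pairs with the sparse receptors strayed farther on few cells, such as *FGF18* and *FGFR2* with ratios of 1.43 in the control (8 cells) and 1.41 in the TGF-β1 library (23 cells), and *FGF7* and *FGFR2* with 0.98 (14 cells) and 1.28 (31 cells). The median cell held 3 of the 10 members in each library, with exactly 4 in 21.6% of control and 31.6% of treated cells.

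For the 6 members found in at least 5% of cells of both libraries, all 9351 genes of that share were ranked by their correlation over cells with the member, on the log of thinned UMIs plus 1. The cells share a library, 20000 UMIs each and a fixed sum, so that these coefficients only describe the data. *FGF21* was most like *ACTA2* (r = 0.22 in 3865 control cells and 0.24 in 4513 TGF-β1 cells), *TPM1* (0.21 and 0.21) and *TAGLN* (0.20 and 0.21), genes of the contractile apparatus. It ran opposite to *SOX5* (-0.19 and -0.13), *ADD3* and *EHBP1*.

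*FGF2* and *HGF* had *ACTA2* at the opposite end. For *FGF2*, r with *ACTA2* was -0.21 in the control and -0.27 in the TGF-β1 library, followed by *MYL6* and *TPM2*, and the genes most like it were *MGMT* (0.31 in both), *SUSD4* and *NUDT6* (0.31 and 0.25). For *HGF*, r with *ACTA2* was -0.23 and -0.16, followed by *TAGLN* and *MYL9*, and the genes most like it (*PRXL2A*, *ANTXR2*, *RASSF8*) reached at most 0.15. *FGF7* was most like *EDNRB* (0.16 and 0.16), *SFRP1* and the matrix proteoglycan *DCN*, and ran opposite to *RPS3*, *DES* and *ANXA1*. *FGFR1* was most like *PRUNE2* (0.23 and 0.22), *COL5A1* and *MYH9*, and ran opposite to *EEF1A1* and *RPS12*, which encode parts of the translation machinery. For *FGF18* no gene reached 0.10 in both libraries, where *G0S2*, *CCL8* and *CADPS2* came first and *IGFBP7*, *PRXL2A* and *NRP1* last.

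Because *ACTA2* stood at an end of the ranking for 3 members, the cells of both libraries were placed in 4 common ranges of *ACTA2* UMIs, a step chosen after these rankings were seen. The ranges hold 0 to 39, 40 to 70, 71 to under 110, and 110 or more UMIs per thinned cell. The lowest range held 39.8% of control and 11.6% of treated cells, and the highest held 20.1% and 29.8%. *ACTA2* itself stood at 3608 CPM in the control and 4745 CPM in the TGF-β1 library. It is continuous over cells, and 25.6% of control and 34.1% of treated cells lay within 10% of a boundary.

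*FGF21* was higher in each higher range of *ACTA2* in both libraries, and higher in the TGF-β1 library within each range. Control cells went from 17.9 CPM in the lowest range over 32.5 and 38.0 to 48.6 CPM in the highest. TGF-β1 cells went from 114.8 CPM over 148.1 and 181.5 to 220.7 CPM. Treated cells with the least *ACTA2* therefore held more *FGF21* than control cells with the most. Between libraries the log2 ratio was 2.68 in the lowest range and 2.19, 2.26 and 2.18 in the higher ranges, beside 2.51 over all thinned cells.

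*FGF14* went the other way over *ACTA2* while sharing the difference between libraries. It went from 3.96 CPM in the lowest range to 0.966 CPM in the highest in the control, and from 18.8 to 4.60 CPM after TGF-β1, so by 4.10-fold and 4.08-fold. Within the 4 ranges its log2 ratio between libraries lay between 2.24 and 2.94. The 2 members with the largest rise after TGF-β1 were thus highest at opposite ends of *ACTA2*.

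*HGF*, *FGF2* and *FGF7* were lower where *ACTA2* was higher. *HGF* went from 35.7 CPM in the lowest range to 12.8 CPM in the highest in the control, and from 25.5 to 10.4 CPM in the TGF-β1 library. Within the ranges, *HGF* was lower in the TGF-β1 library by log2 ratios from -0.76 to -0.29. *FGF2* went from 495.0 to 280.2 CPM in the control and from 612.2 to 286.1 CPM in the TGF-β1 library. Its log2 ratio between libraries was 0.31 in the lowest range and -0.17 in the third, so its direction depended on the range. *FGF7* went from 41.7 to 23.6 CPM in the control and from 42.3 to 20.9 CPM in the TGF-β1 library, and its interval between libraries held 0 in each of the 4 ranges.

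**Figure D4:**
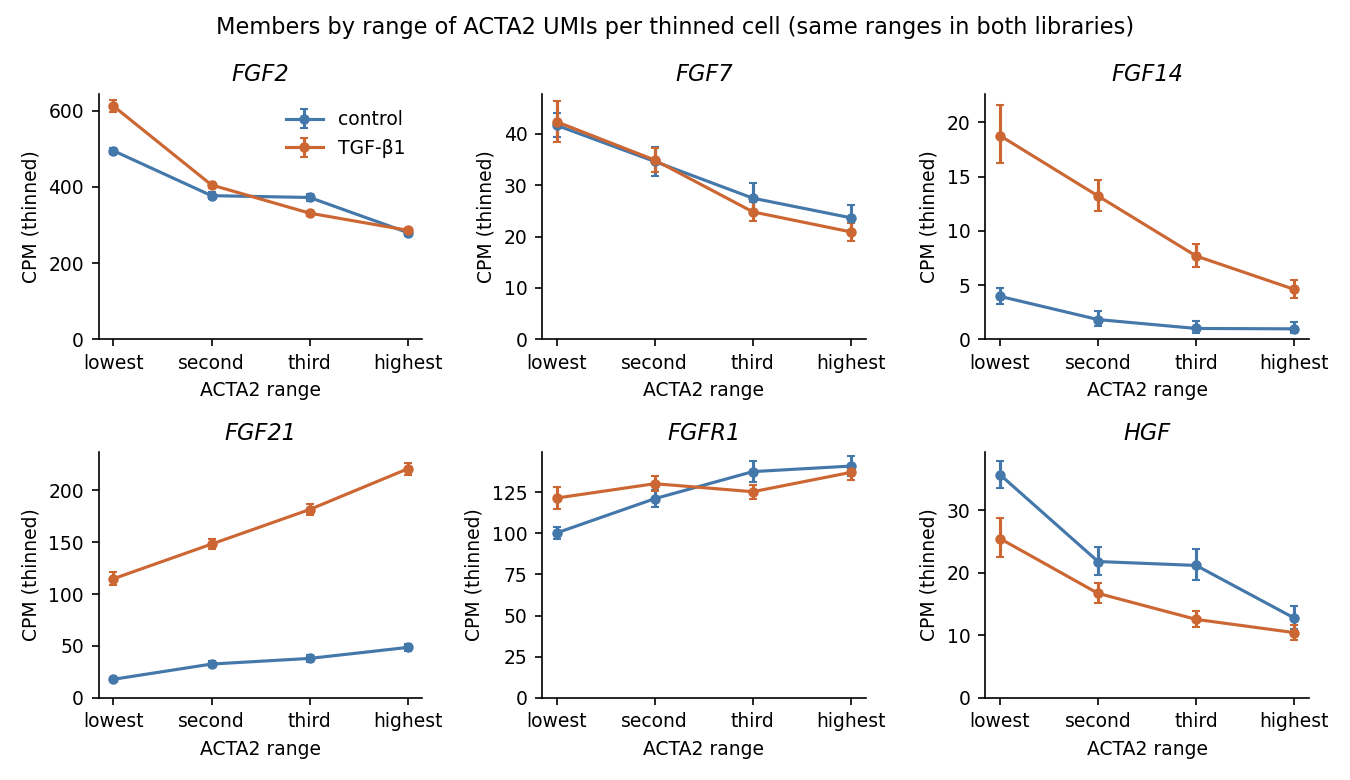
Level of 6 members (CPM of thinned cells, axis from 0) in 4 common ranges of *ACTA2* UMIs per cell, for control and TGF-β1 cells, with exact 95% Poisson intervals. *FGF21* climbs with *ACTA2* from 17.9 to 48.6 CPM in the control and from 114.8 to 220.7 CPM in the TGF-β1 library, *HGF*, *FGF2*, *FGF7* and *FGF14* descend, and the *FGF7* lines of the libraries overlie each other.

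*FGF18* and *FGFR1* depended on *ACTA2* more in the control than in the TGF-β1 library. *FGF18* went from 9.55 to 4.32 CPM in the control but from 10.4 to 10.3 CPM in the TGF-β1 library, and its log2 ratio between libraries was 0.13 (-0.20 to 0.45) in the lowest range and 1.26 (0.87 to 1.66) in the highest. *FGFR1* went from 100.2 to 140.8 CPM in the control and from 121.4 to 137.0 CPM in the TGF-β1 library. *FGFR4* was lower in the TGF-β1 library in each range, with log2 ratios from -3.15 to -2.52, and showed no steady course over *ACTA2* (3.83, 1.76, 2.65 and 2.90 CPM in control cells). Its 4 TGF-β1 values rest on 5 to 12 UMIs each.

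Cells were also grouped by a UMI of *KRT8*, *VCAM1*, *IGFBP3* or *AREG*, genes that mark subsets of these cultures, or by 3 or more cycling markers. The cytokeratin *KRT8*, an epithelial gene found here while *EPCAM* and *CDH1* were near 0, went from 114.3 CPM in the control to 4.48 CPM in the TGF-β1 library, and with it the summed level of the 8 epithelial markers found went from 134.6 to 12.4 CPM, while 3 of the 8 had 10 or fewer UMIs in both libraries. In the control, 986 cells with *KRT8* held less *FGF7* than the other cells (20.7 against 38.5 CPM), less *FGF2* (315.8 against 433.8 CPM) and more *FGF21* (38.6 against 28.3 CPM). *FGFR4* did not follow *KRT8*, with 3.09 CPM in cells with it and 2.94 CPM in cells without it. Among cells without *KRT8*, *FGFR4* was 2.94 CPM in the control and 0.379 CPM after TGF-β1, for a log2 ratio of -2.95. All thinned cells gave -2.98 in the same random draw, and the mean of per-cell CPM over all cells gave -2.47. Also without *KRT8*, the log2 ratio was -0.42 for *FGF7* and -0.22 for *FGF2*, beside -0.25 and -0.12 over all thinned cells.

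Cells with *VCAM1*, an adhesion molecule, and cells with *AREG*, the growth factor amphiregulin, had contrasting profiles. The 180 control cells with *VCAM1* held more *FGF7* (a log2 difference of 0.59), *FGF14* (4.72 against 2.24 CPM) and *FGF18* (12.2 against 6.96 CPM) and less *FGF21* (22.8 against 31.3 CPM) than the other cells. The 170 control cells with *AREG* held less *FGF7* (16.5 against 34.7 CPM), less *HGF* (11.8 against 26.0 CPM) and more *FGF21* (50.3 against 30.0 CPM). In the TGF-β1 library, the 1031 cells with *AREG* showed smaller differences in the same directions, with 21.8 against 30.4 CPM of *FGF7*, 11.4 against 15.5 CPM of *HGF* and 205.0 against 167.6 CPM of *FGF21*.

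The larger differences between libraries kept their direction inside these groups, and the smaller did not in each. The groups are overlapping divisions of the same cells, and each group without a marker holds most cells of its library. The counts of groups below are therefore not counts of separate observations. *FGF21* exceeded the control in 8 of 8 groups compared (cells with and without *KRT8*, *IGFBP3*, *AREG* or cycling markers), by log2 ratios from 2.03 to 2.71, and *FGF14* in 6 of the 6 groups with enough UMIs, from 1.23 to 2.54. *FGFR4* was lower in 6 of 6, from -3.16 to -2.38. *HGF* was lower in 8 of 8, from -1.0 to -0.05, where the smallest difference belonged to cells with *AREG* and had an interval from -0.53 to 0.48. *FGF2* was lower in 6 of 8 groups and higher in cells with *AREG* (0.10) and with cycling markers (0.51, interval 0.34 to 0.68). *FGF7* was lower in 7 of 8 and higher in cells with *AREG* (0.41), *FGF18* was higher in 7 of 8 and lower in cells with *IGFBP3* (-0.09), and *FGFR1* was higher in 6 of 8.

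Of the other genes of the pathway, 50 had a mean of at least 1 CPM. The TGF-β1 library was more than 2-fold higher for 2 of them and more than 2-fold lower for 4, beside 3.45% and 3.46% of all genes, with a median log2 ratio of -0.03. Among the 6 other FGF ligands of that level, *FGF11*, another intracellular homologous factor, was lower (1.96 to 0.878 CPM, log2 ratio -1.16). The ligand with the largest rise was *FGF12*, of the same intracellular group as *FGF14* (25.7 to 39.7 CPM, 0.63). The median of the 6 was -0.17.

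None of the 3 other receptors and co-receptors of that level passed 2-fold. *FGFRL1*, a receptor that lacks the kinase domain, was the highest (17.2 to 27.7 CPM, log2 ratio 0.69), and *FLRT3* the lowest (5.10 to 4.02 CPM, -0.34). Of 17 adaptors and transducers none passed 2-fold either, from *MAPK3*, the kinase ERK1 (-0.77, at 1.501 and 0.883 CPM), to *MAP2K1*, the kinase that activates the ERKs (44.6 to 71.6 CPM, 0.68). The 10 feedback inhibitors ranged from *DUSP6*, the phosphatase of ERK (40.3 to 21.1 CPM, -0.93), to *DUSP4* (8.99 to 12.7 CPM, 0.50), with a median of -0.03.

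The transcription targets of FGF and ERK signals divided. *FOS* (194.0 to 64.3 CPM, log2 ratio -1.59) and *EGR1* (174.6 to 70.9 CPM, -1.30), which respond to a signal within minutes, were more than 2-fold lower. *ETV4* (4.19 to 10.2 CPM, 1.28) and the cyclin *CCND1* (78.9 to 176.5 CPM, 1.16) were more than 2-fold higher. The median of the 8 genes was 0.16. Among 6 genes of HGF reception and activation, *PLAT*, the tissue plasminogen activator, was lower (28.7 to 10.4 CPM, -1.47), and *SPINT1*, an inhibitor of the protease that activates *HGF*, was the highest (2.98 to 4.76 CPM, 0.67). The median of the 6 was -0.25.

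**Figure D5:**
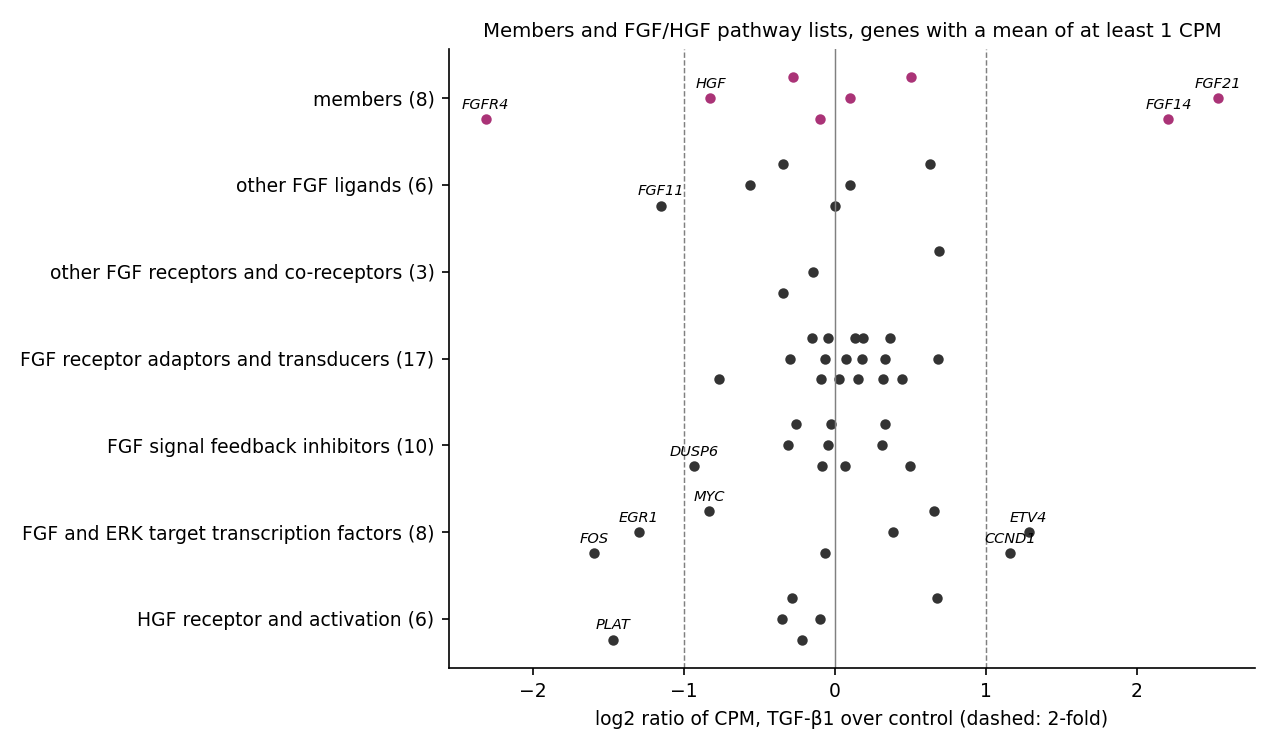
Log2 ratio of CPM, TGF-β1 over control, for 8 members and 50 genes of 6 FGF and HGF pathway lists with a mean of at least 1 CPM, as 1 point per gene with dashed lines at 2-fold. *FGFR4*, *FGF14* and *FGF21* lie farther out than any gene of the lists, where the extremes are *FOS* at -1.59 and *ETV4* at 1.28.

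In the RefSeq annotation of another horse assembly (TB-T2T), used for neighbours only, *FGF2* overlaps a locus with no gene name and lies next to *NUDT6*, *FGF7* overlaps *FAM227B*, *FGF14* overlaps another unnamed locus, and the other 7 members overlap no gene. *NUDT6*, known as an antisense partner of *FGF2*, stood at 16.2 CPM in the control and 13.0 CPM in the TGF-β1 library, and *FAM227B* at 1.501 and 0.869 CPM. Whether the counting used the strand and intronic reads is not given in the sources used here, so reads of such pairs may have been divided between them, and the likeness of *FGF2* and *NUDT6* over cells is uncertain for that reason. The nearest coding gene of *FGF14*, *ITGBL1*, went from 15.01 to 1.48 CPM, opposite to *FGF14*, and that of *FGF21*, *FUT1*, from 1.48 to 2.42 CPM.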

How the data were processed

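Equine endometrial fibroblasts were profiled in 1 control and 1 TGF-β1 library (10x 3' v3.1). The deposited counts are UMI counts per gene and barcode, which the authors obtained from Cell Ranger (7.1.0 in the methods, 8.0.1 in the file header) against EquCab3.0 with the Ensembl annotation. Use of introns and strand is not given in the sources used here. The submitters' processing notes also name Seurat 5 and edgeR 4.2.2, which were not used.

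Kept barcodes had 20000 or more UMIs and 3500 or more detected genes, with mitochondrial UMIs below 4%. Doublets were called by the authors from reads with Souporcell. That step was not repeated, and no caller was run. Sums over kept cells were scaled to CPM without a pseudocount, with scipy 1.17.1, numpy 2.4.6 and pandas 2.3.3 under Python 3.11.15, and figures with matplotlib 3.10.9. Exact binomial (Clopper-Pearson) and Poisson intervals at 95% cover counting error only, and the 210497250 and 219731144 kept UMIs set their width. No ratio was formed where both libraries, or either group of cells, held 3 or fewer UMIs. Ratios were tested on simulated data. Shares of cells, co-detection, correlations and levels within groups of cells rest on cells thinned once to 20000 UMIs.

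The text names the 10 members, pathway genes past 2-fold whose mean reached 1 CPM, the largest change of each list in each direction, and the 3 genes most and least like each member over cells, of which 1 is not reported here. The neighbouring genes, *KL* and the genes of the other observations were named after their values were seen. The members and lists were chosen with earlier results of these data known. *FGF13*, *FGFBP2*, *MKI67*, *KRT18* and *KRT19* were not found by symbol. The alternatives were other cell filters, scalings, minimum levels and fold limits, thinning, removal of cycling cells, equal shares of *ACTA2* ranges and expected shares over all thinnings. The last pair was added after seeing the data.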

Additional observations from a re-analysis of the deposited data

How the results depend on the processing

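With 1 library per group, differences between mares, cultures and library preparations are in no interval, and doublets were not removed. Of 100 alternative log2 ratios of single members, 85 stayed within the main counting interval. Raising the minimum mean to 10 CPM left 1 member more than 2-fold higher and 0 more than 2-fold lower, since *FGFR4* is then not counted and *FGF14* has a mean below it. These are counts past a fold, with no test. A 1.5-fold limit gave 2 members lower, with *HGF* added. *ACTA2* itself was higher in the TGF-β1 library, so equal shares of its ranges make a different comparison from the other alternatives. With thinned cells and equal shares of the *ACTA2* ranges in both libraries, chosen after seeing the data, the log2 ratio of *FGF2* was 0.10 (-0.12 for thinning alone), that of *FGF7* -0.05 (-0.25), that of *HGF* -0.49 (-0.80) and that of *FGF10* -0.28 (-0.60), while *FGF21* (2.28), *FGF14* (2.52) and *FGFR4* (-2.73) stayed past 2-fold, with *FGFR4* and *FGF14* ahead of *FGF21*. Thinned cells alone gave -2.98 for *FGFR4*, beyond the 2.51 of *FGF21*, but both alternatives rest on 1 random thinning that left few *FGFR4* UMIs. The mean of per-cell CPM gave -2.47 for *FGFR4* and 2.54 for *FGF21*, so their order depends on the setting. Another thinning seed moved the co-detection ratio of *FGF7* and *FGF18* in the control from 1.11 to 0.91, so no order was read from it. No paired analysis was possible because cells were not assigned to mares from the deposited counts. Depth limits *FGF10*, *FGFR2* and *FGFR4*, which had at most 3 UMIs in any thinned cell.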

Other observations

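The other FGF ligands of these fibroblasts also followed *ACTA2* in different directions, by the common ranges described for the members and likewise chosen after seeing the data. *FGF1*, a ligand of every FGF receptor, went from 21.7 CPM in the lowest range to 11.6 CPM in the highest in the control and from 25.9 to 14.9 CPM in the TGF-β1 library, so it ran with *HGF* and *FGF2*. *FGF5* went the other way, from 7.15 to 13.0 CPM in the control and from 6.70 to 12.2 CPM in the TGF-β1 library, and its level hardly differed between libraries (10.5 and 11.2 CPM). *FGF19*, the hormone that acts through *FGFR4*, went over *ACTA2* from 5.46 to 9.09 CPM in the control and from 3.26 to 5.83 CPM in the TGF-β1 library, and was lower in the TGF-β1 library as a whole (6.85 and 5.40 CPM).

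*FGF9*, a ligand that the uterine lining is known to make, was at 27.4, 33.4, 34.9 and 28.7 CPM over the ranges in the control and at 19.3, 21.0, 18.9 and 19.0 CPM in the TGF-β1 library, and was lower in the TGF-β1 library in each range, with log2 ratios from -0.89 to -0.51. *FGF12* exceeded the control in each range, by log2 ratios from 1.06 in the lowest to 0.43 in the highest. *PLAT* was lower in the highest range than in the lowest by 2.53-fold in the control and 2.85-fold in the TGF-β1 library, whereas *MET*, the receptor of *HGF*, was at 51.8, 66.3, 63.7 and 61.5 CPM over the ranges in the control and at 35.2, 44.2, 47.0 and 54.5 CPM in the TGF-β1 library. *HGF* was lower in each higher range of both libraries, while *MET* was higher in each higher range of the TGF-β1 library only and peaked in the second range of the control. The klotho gene *KL* had 19 UMIs in the control and 69 in the TGF-β1 library.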
